A study of Mus musculus with 24 samples.

Results

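The change between the GFP-negative and the GFP-positive fraction was compared between the oculomotor and the spinal motor neuron culture, gene by gene. For each gene, the step was log2(RPKM + 1) in a GFP-positive sample minus that in the GFP-negative sample of the same culture and replicate number, where RPKM is the number of reads of a gene scaled to its length and to the mapped reads of the sample. All 24 samples of the series entered, as 6 oculomotor and 6 spinal pairs, and 22179 of the 22889 gene entries were tested. A positive difference, written below as a higher oculomotor step, is a mean oculomotor step that is more positive than the mean spinal step. A negative difference is written as a higher spinal step.

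Both cultures were grown from mouse embryonic stem cells (mESCs) as embryoid bodies and received patterning factors for 5 days before FACS. For the oculomotor culture, the mESC line had an *Islet1*-GFP reporter and a *Phox2a* transgene driven by the *nestin* enhancer (*Islet1*-GFP/*NesEPhox2a*), and the culture was given the Smoothened agonist SAG at 250 nM with FGF8 at 100 ng/ml. The spinal culture came from an *Hb9*-GFP mESC line without that transgene and was given SAG at 500 nM with retinoic acid at 100 nM. The line, the reporter behind the sort and the patterning factors changed together, and their parts in any difference cannot be told apart. In bulk samples of this kind, fewer cells of a type and less RNA per cell also cannot be told apart. Nothing in the labels states that replicates were separate cultures, so p values measure the spread between these samples, which may be technical.

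Motor neurons arise from ventral progenitors that respond to hedgehog signaling, leave the cell cycle and switch on *Isl1*, a LIM homeodomain factor of motor neurons. Retinoic acid gives them a spinal position and, with *Lhx3* and *Mnx1* (the gene for HB9), a spinal identity, while *Phox2a* directs the oculomotor nucleus. Embryonic stem cells that have not differentiated keep *Pou5f1*, *Nanog* and their target genes active, and endoderm of embryoid bodies expresses *Gata4*, *Gata6*, *Sox17* and the collagens and laminins of basement membrane.

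The estimated depth ran from 752529 to 4642207 reads in replicates 1 to 4 and from 4822576 to 7675428 reads in replicates 5 and 6. In the spinal GFP-negative sample 2, 3 gene models held 68.8% of the summed RPKM, against 17.8% in its GFP-positive partner and at most 5.44% in any other sample. The main fit did not rescale the RPKM of other genes for this. The libraries labelled spinal pair 4 stood apart and are treated separately throughout. Across genes, the step of that pair had a correlation of 0.017 with the mean of the other spinal pairs, against 0.430 to 0.639 for each of the others and 0.777 to 0.881 for the oculomotor pairs. In the spinal sample labelled GFP-positive 4, *Isl1* was at 7.63 RPKM and *Mnx1* at 43.1 RPKM, and both were higher in its GFP-negative partner (8.56 and 69.4 RPKM). The sorting label and the markers thus went against each other in that pair, and the results below are given with all 12 pairs and with the 11 pairs that remain without it. Where a pair of values follows a gene or a list, the first is with all 12 pairs and the second without spinal pair 4. Spinal levels of single genes are given for the 5 other pairs and for pair 4 separately.

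The steps of the cultures differed for 453 genes with all 12 pairs, 2.04% of those tested (limma on log2(RPKM + 1) with a term for each pair, Benjamini-Hochberg adjusted p under 0.05). Of these, 189 had the higher oculomotor step (0.852% of genes tested) and 264 the higher spinal step (1.19%). Without spinal pair 4 the counts were 499 (2.29% of 21837), 246 (1.13%) and 253 (1.16%). The fits shared 349 genes, 148 with the higher oculomotor and 201 with the higher spinal step, while 104 were called only with all pairs and 150 only without spinal pair 4. The mean oculomotor step passed the test for 3644 genes (16.4%), and the spinal step for 649 (2.93%) with all pairs and 1238 (5.67%) without spinal pair 4. Median absolute step sizes over the 8268 genes of at least 5 RPKM in a group were 0.535 in the oculomotor and 0.333 in the spinal culture, or 0.402 without spinal pair 4. Within replicates 1 to 4, of lower estimated depth, 52 genes were called. None was called within replicates 5 and 6, which leave 2 pairs per culture and where 2163 genes had an unadjusted p under 0.05. The labels name no batch. The study's methods name different Illumina instruments and read lengths without assigning them to samples. These, the number of pairs and the depth cannot be told apart in these counts. Leaving out 1 pair gave 220, 297 or 246 genes without oculomotor pair 2, 3 or 6 and 275 without spinal pair 5, and other pairs moved the count by less than 1.5 times. From the 11 pairs without spinal pair 4, leaving out oculomotor pair 2 or 6 gave 299 or 314. Without the term for pairs the count was 71 with all pairs, and the direction that prevailed changed, with 58 genes of higher oculomotor and 13 of higher spinal step. It was 228 without spinal pair 4, with 132 and 96.

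Genes with the higher spinal step mostly fell in the oculomotor culture. Of the 264 with all pairs, 239 had a called fall in the oculomotor culture and no called spinal step, 20 had a called rise in the spinal culture alone, and 1 fell in the oculomotor and rose in the spinal culture. Of the 253 without spinal pair 4, these counts were 191, 47 and 9. The mean steps of 188 of the 264 and of 200 of the 253 had opposite signs. For the higher oculomotor step the make-up depended on spinal pair 4. With all pairs, 154 of the 189 genes had a called rise in the oculomotor culture and no called spinal step, 13 rose in both cultures and 18 had a called fall in the spinal culture alone. Without spinal pair 4, 104 of the 246 rose in the oculomotor culture alone, 23 rose in both, 86 fell in the spinal culture alone, 23 fell in both, and 6 rose in the oculomotor and fell in the spinal culture. A step called in one culture alone did not by itself mark a difference between the cultures. Of the 3357 genes whose oculomotor step was called and whose spinal step was not, 393 (11.7%) passed the test of the difference, and without spinal pair 4 it was 295 of 3041 (9.70%). A difference between steps is not by itself a difference between the GFP-positive samples. With all pairs, the cultures differed more in GFP-negative than in GFP-positive samples for 61 of the 189 genes and 138 of the 264. Without spinal pair 4 they did for 147 of the 246 and 156 of the 253.

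**Figure D1:**
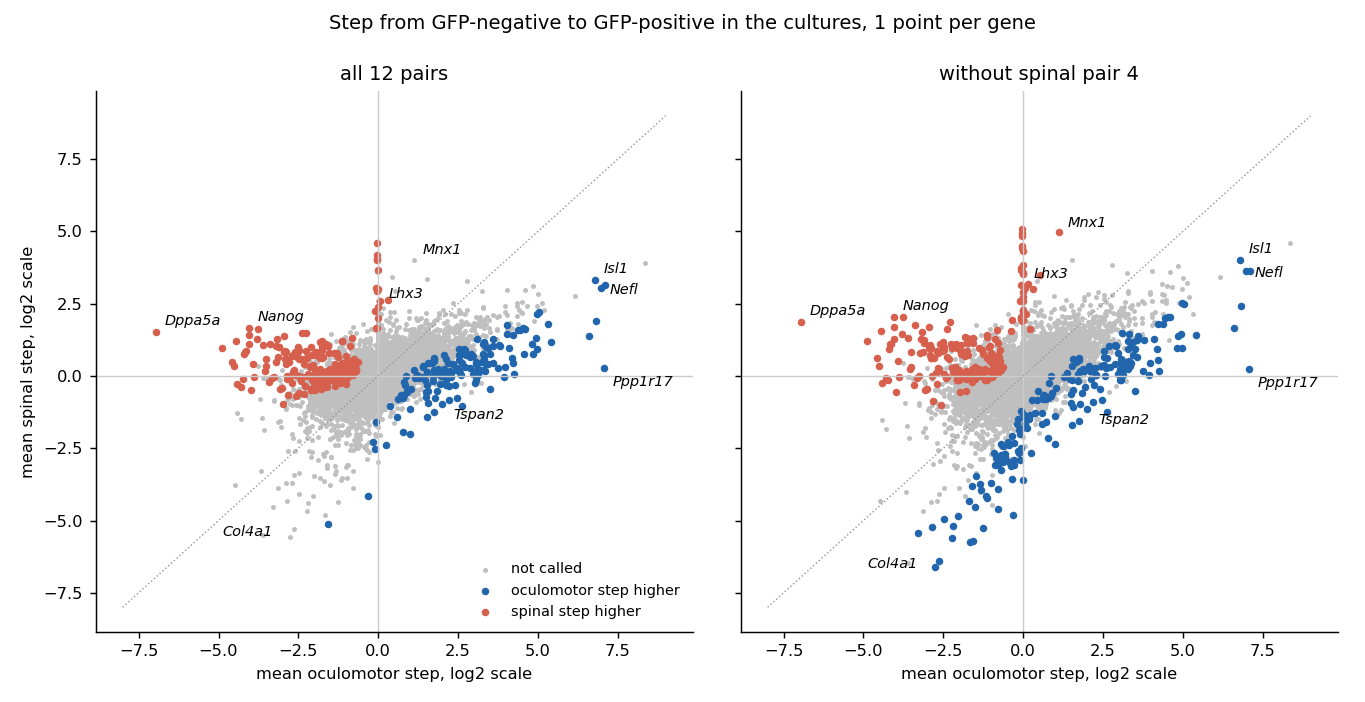
Mean step from GFP-negative to GFP-positive, in log2(RPKM + 1), of each gene with at least 5 RPKM in a group, with the oculomotor step on one axis and the spinal step on the other, for all 12 pairs (left) and without spinal pair 4 (right). The dotted line marks equal steps, and colored genes are those whose steps differed between the cultures (453 and 499 genes over all genes tested). Many of the genes with the higher spinal step lie where the oculomotor step is negative and the spinal step is near 0 or positive.

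Pluripotency genes had the largest median difference of the 26 gene lists, in both fits, and it was toward the higher spinal step. Of the 19 genes on the list, 13 had a called higher spinal step with all pairs (against 1.19% of all genes) and 14 did without spinal pair 4 (1.16%), and none had a called higher oculomotor step. With any 1 pair left out, 11 to 14 of them were called. The median difference over the list was -3.77 with all pairs and -4.02 without spinal pair 4, beside 0.01 over all genes. In the oculomotor culture 18 of the 19 fell toward the GFP-positive fraction in both fits, against 8.21% of all genes with all pairs and 8.44% without spinal pair 4. In the spinal culture none rose with all pairs, *Nanog* and *Klf2* rose without spinal pair 4, and *Klf4* fell in both fits (1.6% and 2.62% of all genes fell there). Summed over the list, RPKM ran from 912 to 10058 in oculomotor GFP-negative and from 56.9 to 303 in oculomotor GFP-positive samples, from 177 to 6537 in spinal GFP-negative and from 29.8 to 12899 in spinal GFP-positive samples. These sums mostly reflect *Dppa5a*. Its median in oculomotor GFP-negative samples was 6336 RPKM, beside 6714 RPKM for the list, and it alone held 12328 of the 12899 RPKM. The highest spinal GFP-negative sum was pair 4, with 5809 RPKM in its GFP-positive sample, and the next highest was 490.4 RPKM. The list's median step ran from -4.09 to -2.37 over the oculomotor pairs and from -0.18 to 2.18 over the spinal pairs, without overlap. In fits without the term for pairs, 0 of the 19 genes were called with all pairs and 11 without spinal pair 4. The genes of the list that were not called with all pairs were *Klf4*, *Klf5*, *Utf1*, *Lin28a*, *Sall4* and *Tfcp2l1*, and *Tfcp2l1* was called without spinal pair 4.

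*Dppa5a*, an RNA-binding protein of pluripotent cells (chromosome 9, 78367052 to 78368177 on GRCm38), had the largest difference of any named gene. *Dppa5a* was at 593 to 9806 RPKM (median 6336) in oculomotor GFP-negative samples and at 0 to 246 RPKM (median 55.4) in oculomotor GFP-positive samples. For *Dppa5a* in the 5 other spinal pairs, the values were 73.0 to 386 RPKM (median 112) in GFP-negative and 14.0 to 12328 RPKM (median 687) in GFP-positive samples, and pair 4 held 5434 and 4849.8 RPKM. The oculomotor GFP-positive and GFP-negative samples did not overlap, while the spinal fractions did. Its step ran from -9.21 to -4.78 in the oculomotor pairs and from -2.30 to 5.20 in the spinal pairs. The difference was -8.49 ± 1.12 (SE) with all 12 pairs, adjusted p = 0.00217, and -8.82 ± 1.17 without spinal pair 4, adjusted p = 0.00249 (limma). It was -7.16 (adjusted p = 0.0603) within replicates 1 to 4 and -11.14 (adjusted p = 0.227) within replicates 5 and 6. *Dppa5a*, *Nanog* and *Dppa3* have near-identical copies elsewhere in the mouse genome between which reads can be split, so their levels are uncertain to that extent.

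*Nanog* encodes a homeodomain factor at the center of the pluripotency network (chromosome 6, 122707489 to 122714633). *Nanog* was at 16.5 to 85.4 RPKM (median 36.0) in oculomotor GFP-negative samples and at 0.315 to 3.17 RPKM (median 1.34) in oculomotor GFP-positive samples. For *Nanog* in the 5 other spinal pairs, the values were 0 to 9.48 RPKM (median 1.26) in GFP-negative and 0 to 40.5 RPKM (median 13.5) in GFP-positive samples, and pair 4 held 185 and 156 RPKM. All 6 oculomotor steps were negative, from -4.37 to -3.69, whereas the spinal steps ran from -0.24 to 3.69, with pair 3 at 0 and pair 4 the only negative one. The difference was -5.72 ± 0.62 (SE) with all 12 pairs, adjusted p = 0.000788, and -6.10 ± 0.57 without spinal pair 4, adjusted p = 0.000614 (limma), and -5.16 (adjusted p = 0.0409) within replicates 1 to 4 and -6.82 (adjusted p = 0.227) within replicates 5 and 6. Without spinal pair 4 the oculomotor fall and the spinal rise were each called.

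The proximal promoter of *Nanog* holds a joint Sox and octamer element, which the pluripotency factors are known to bind, and it is shown because *Nanog* led the genes that moved in opposite directions. In RefSeq promoter windows on GRCm38.p6, from 250 bases before to 50 bases after each gene start, 7 letters of the octamer motif, ATGCAAA, were searched on both strands. They were found in 1520 of 32851 windows (4.63%). Of the pluripotency list, 13 of 19 genes had a window and 2 of these, *Nanog* and *Zfp42*, held them. Of the 24 genes of largest difference 14 had a window and 3 held the letters, *Nanog*, *Spp1* and *Rgs4*, of which *Rgs4* had the higher oculomotor step. The longer joint element, the Sox motif CATTGT followed after 1 free base by these 7 letters, was in 2 windows (0.00609%), both of *Nanog*. The 7 letters read as TTTGCAT on the other strand and stand in capitals below for *Zfp42*, and the joint element stands in capitals for *Nanog*. The *Nanog* stretch is chr6:122707391-122707450 on the plus strand and the *Zfp42* stretch is chr8:43307162-43307221 on the minus strand.
Nanog: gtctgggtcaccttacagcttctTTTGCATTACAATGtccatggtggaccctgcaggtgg
Zfp42: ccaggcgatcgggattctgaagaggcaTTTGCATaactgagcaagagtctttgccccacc
A match of letters is a description of the window and was not tested against the steps.

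Among the 12 genes of largest difference with the higher spinal step, 5 were on the pluripotency list. *Dppa4* (-5.06 and -5.23), *Dppa3* (-5.01 and -5.27) and *Tdgf1*, a Nodal co-receptor (-4.99 and -5.22), followed *Dppa5a* and *Nanog*, and *Lefty1*, a Nodal antagonist expressed in stem cells (-5.45 and -5.71), is on no list. *Gtsf1l* (-5.41 and -5.80), *Ifitm1*, an interferon-inducible membrane protein (-5.67 and -6.01), *Phlda2* (-5.14 and -5.33), the small heat shock protein gene *Hspb1* (-5.05 and -5.19), the secreted phosphoprotein gene *Spp1* (-5.88 and -6.10) and *Upp1*, a uridine phosphorylase (-4.94 and -5.13), completed them. Each value is the difference between mean steps in log2(RPKM + 1). All 12 were chosen for a call in both fits and a large difference, so those calls add no support. Each kept its call with each of the 12 pairs left out in turn. For 11 of the 12 the steps of the cultures did not overlap in either fit, and *Phlda2* was the exception in both. Steps without overlap were found for 576 genes (2.6%) with all pairs and for 825 (3.78%) without spinal pair 4. The 12 genes were chosen by these same steps, so their overlap is a description and no test. When the term for pairs was dropped, only *Gtsf1l* of the 12 was called with all pairs, and 9 of the 12 were called without spinal pair 4. Within replicates 1 to 4, 8 of the 12 were called, and within replicates 5 and 6 none was (the lowest adjusted p among the 24 genes of largest difference was 0.227).

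**Figure D2:**
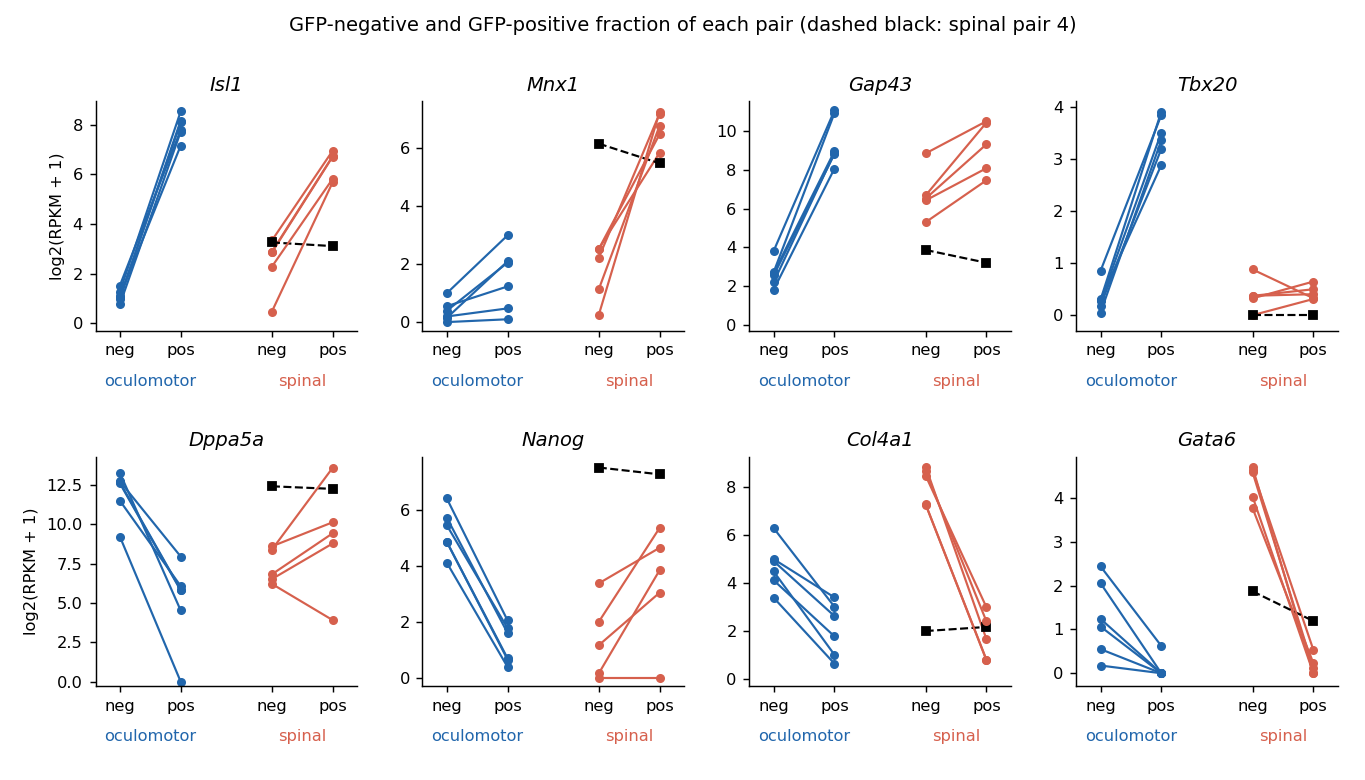
log2(RPKM + 1) in the GFP-negative and GFP-positive sample of each pair, joined by a line, for 8 genes in the oculomotor and the spinal culture; spinal pair 4 is dashed with black squares. *Dppa5a* and *Nanog* fell in 6 of 6 oculomotor pairs, *Gap43* and *Tbx20* show the higher oculomotor step, and the flat dashed lines are the pair whose fractions hardly differed.

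Neuron-wide genes rose toward the GFP-positive fraction in both cultures, and some rose further in the oculomotor culture. Of 25 such genes, 22 rose in the oculomotor culture and 20 in the spinal culture, or 24 in the spinal culture without spinal pair 4. Over all genes 8.22% rose in the oculomotor culture (8.34% without spinal pair 4) and 1.33% in the spinal culture (3.05% without spinal pair 4). The difference was called for 7 (0.852% of all genes had a higher oculomotor step), *Elavl3*, *Elavl4*, *Snap25*, *Gap43*, *Scg3*, *Nefl* and *Nefm*, all with the higher oculomotor step and the same 7 in both fits. The median difference over the list was 1.75 with all pairs and 1.11 without spinal pair 4. Summed RPKM ran from 67.9 to 219 in oculomotor GFP-negative, from 2725 to 5332 in oculomotor GFP-positive, from 161 to 1149 in spinal GFP-negative and from 216 to 5661 in spinal GFP-positive samples. With any 1 pair left out, 4 to 10 of the 25 had the higher oculomotor step, and without the term for pairs 2 did with all pairs and 3 without spinal pair 4. In the spinal GFP-positive samples of pairs 1 to 6, the pluripotency sums were 799, 559, 29.8, 5809, 12899 and 1186 RPKM, in that order. The neuron-wide sums of the same samples were 2869, 1103, 5661, 216, 3255 and 4505 RPKM. Of the pluripotency sums, *Dppa5a* alone held 4849.8 RPKM in pair 4 and 12328 RPKM in pair 5. The part of pluripotent-cell RNA in the differences was not tested.

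*Gap43* encodes a growth-cone protein of extending axons (chromosome 16, 42248442 to 42340651). *Gap43* was at 2.52 to 13.1 RPKM (median 5.13) in oculomotor GFP-negative samples and at 266 to 2139.9 RPKM (median 480.3) in oculomotor GFP-positive samples. For *Gap43* in the 5 other spinal pairs, the values were 38.4 to 459 RPKM (median 90.7) in GFP-negative and 175 to 1454 RPKM (median 638) in GFP-positive samples, and pair 4 held 13.6 and 8.24 RPKM. The oculomotor fractions were widely separated and the spinal fractions overlapped. Medians of the 5 other spinal pairs were above the oculomotor medians in both fractions, and further above in the GFP-negative fraction on the log scale. The steps ran from 6.25 to 8.20 in the oculomotor and from -0.66 to 3.75 in the spinal pairs, and from 1.66 to 3.75 without spinal pair 4. The difference was 4.92 ± 0.61 (SE) with all 12 pairs, adjusted p = 0.00170, and 4.41 ± 0.46 without spinal pair 4, adjusted p = 0.000632 (limma). It was 4.87 (adjusted p = 0.0276) within replicates 1 to 4 and 5.02 (adjusted p = 0.232) within replicates 5 and 6. *Nefm* and *Nefl*, neurofilament subunits whose annotated spans overlap on chromosome 14, had differences of 3.95 (adjusted p = 0.0250) with all 12 pairs and 3.47 (adjusted p = 0.0332) without spinal pair 4, and of 3.94 (adjusted p = 0.0296) with all 12 pairs and 3.35 (adjusted p = 0.0311) without spinal pair 4, respectively (limma). Their steps overlapped between the cultures, and the calls with all pairs were lost on leaving out single pairs, in 6 of 12 cases for *Nefm* (adjusted p from 0.0502 to 0.0626) and in 9 of 12 for *Nefl* (adjusted p from 0.0501 to 0.0707). Among the 11 pairs without spinal pair 4, leaving out 1 ended the call for *Nefm* in 9 cases (adjusted p up to 0.0770) and *Nefl* in 9 cases (adjusted p up to 0.0714).

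*Ppp1r17*, a protein phosphatase inhibitor known from cerebellar Purkinje cells (chromosome 6, 56017497 to 56032689), had the largest difference with the higher oculomotor step. *Ppp1r17* was at 0 to 1.77 RPKM (median 0.931) in oculomotor GFP-negative samples and at 158 to 368 RPKM (median 254) in oculomotor GFP-positive samples. For *Ppp1r17* in the 5 other spinal pairs, the values were 0 to 12.6 RPKM (median 3.93) in GFP-negative and 0.945 to 12.0 RPKM (median 7.23) in GFP-positive samples, and pair 4 held 0.803 and 1.31 RPKM. All 6 oculomotor GFP-positive samples lay far above every other sample. The difference was 6.81 ± 0.76 (SE) with all 12 pairs, adjusted p = 0.000875, and 6.83 ± 0.83 without spinal pair 4, adjusted p = 0.00170 (limma), and 5.77 (adjusted p = 0.0267) within replicates 1 to 4 and 8.88 (adjusted p = 0.227) within replicates 5 and 6. The gene is on none of the 26 lists.

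*Rgs4*, a regulator of G-protein signaling, had a difference of 5.23 (adjusted p = 0.000646) with all 12 pairs and 4.95 (adjusted p = 0.000785) without spinal pair 4 (limma). *Rgs4* was at 0 to 0.718 RPKM (median 0.247) in oculomotor GFP-negative samples and at 78.6 to 191 RPKM (median 126) in oculomotor GFP-positive samples. For *Rgs4* in the 5 other spinal pairs, the values were 0 to 0.824 RPKM (median 0) in GFP-negative and 0.559 to 6.94 RPKM (median 4.44) in GFP-positive samples, and pair 4 held 0.304 and 0.248 RPKM. *Chgb*, which encodes the granule protein chromogranin B (4.02 and 4.01), *Sema6d*, a transmembrane semaphorin of axon guidance (3.99 and 3.90), *Lmo1*, a LIM-only factor (4.08 and 3.46), *Tmem132e* (3.76 and 3.65) and *Clps*, the pancreatic colipase gene (3.82 and 4.47, with mean steps of -0.33 in the oculomotor and -4.15 in the spinal culture with all pairs), were also among the 12 genes of largest difference with the higher oculomotor step, each value being a difference in log2(RPKM + 1). Of these 12, 9 kept their call with each pair left out in turn, and *Nefm*, *Nefl* and *Clps* did not, *Clps* losing it in 10 of 12 cases (adjusted p from 0.0570 to 0.0913). A fit without the term for pairs called 7 of the 12 with all pairs and 9 without spinal pair 4. Within replicates 1 to 4 alone, 6 of the 12 were called, and within replicates 5 and 6 none.

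**Figure D3:**
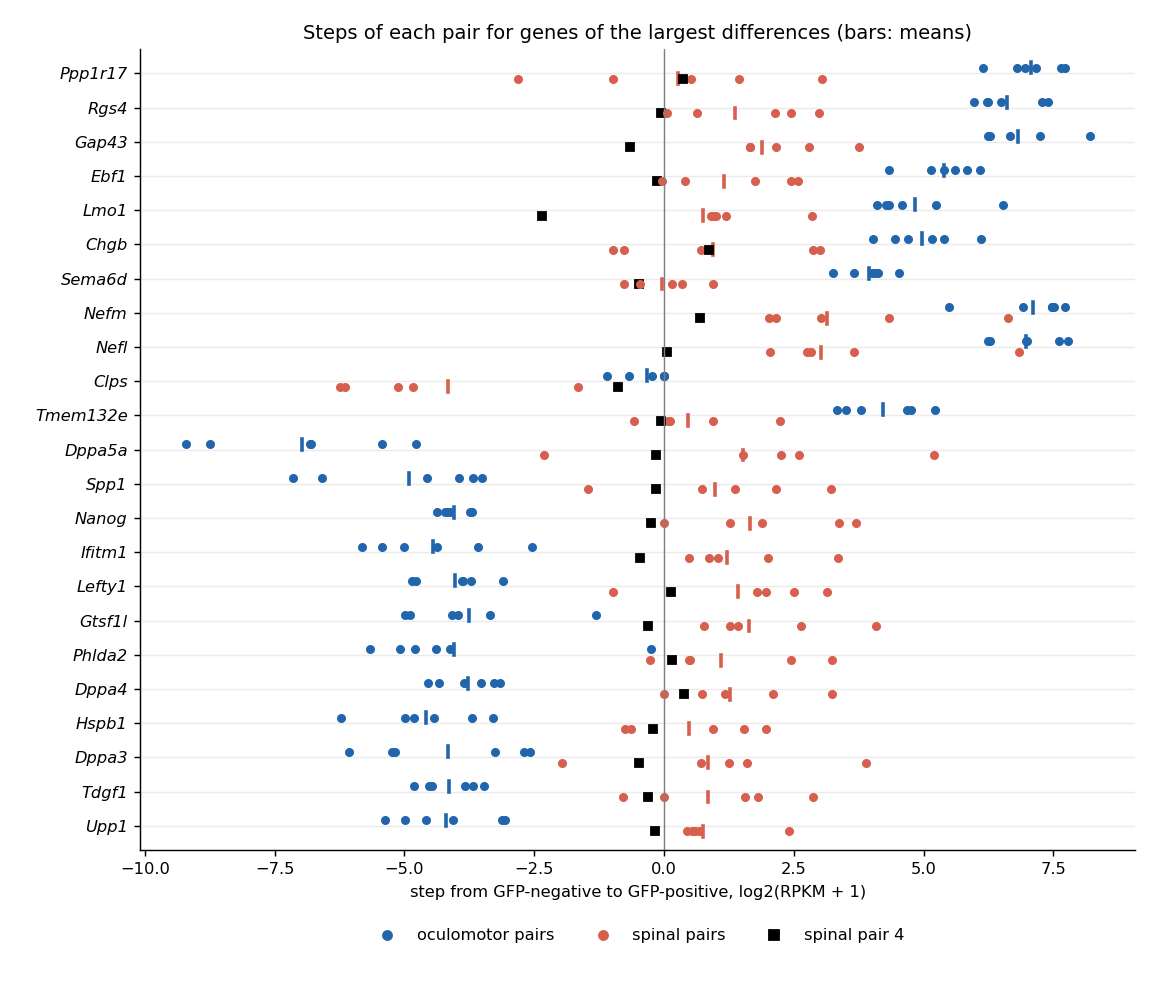
Steps in log2(RPKM + 1) of the 6 oculomotor and the 6 spinal pairs for genes of the largest differences in each direction, with bars at the means and spinal pair 4 marked. For *Ppp1r17* the oculomotor steps all stand above the spinal steps, which lie on both sides of 0, and for *Dppa5a* the oculomotor steps are all negative.

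Of 20 shared motor neuron genes, 15 rose in the oculomotor culture, *Calca* and *Cadps2* fell there, and 8 rose in the spinal culture, or 13 without spinal pair 4 (8.22%, 1.33% and 3.05% of all genes rose). The higher oculomotor step was called for 5 (0.852% of all genes), *Isl1*, *Ebf1*, *Ebf3*, *Onecut2* and *Gfra1*, and for 4 without spinal pair 4 (1.13%), where *Ebf3* was not called. Both counts include *Isl1*, whose reporter defined the oculomotor sort, so that call describes the sort. The call for *Ebf3* with all pairs was also lost in 10 of 12 cases of 1 pair left out (adjusted p at least 0.0513). No gene of the list had a called higher spinal step. The median difference was 1.24 with all pairs and 0.96 without spinal pair 4. Summed RPKM ran from 31.8 to 81.2 in oculomotor GFP-negative, 464 to 775 in oculomotor GFP-positive, 27.7 to 148 in spinal GFP-negative and 53.9 to 504 in spinal GFP-positive samples, the lowest of the last group being pair 4.

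*Isl1* gave the reporter of the oculomotor sort, so its step there describes the sort and is no finding. *Isl1* was at 0.696 to 1.87 RPKM (median 1.11) in oculomotor GFP-negative samples and at 141 to 369 RPKM (median 245) in oculomotor GFP-positive samples. For *Isl1* in the 5 other spinal pairs, the values were 0.392 to 9.10 RPKM (median 6.23) in GFP-negative and 50.4 to 123 RPKM (median 104) in GFP-positive samples, and pair 4 held 8.56 and 7.63 RPKM. In spinal pair 4 it was the GFP-negative sample that held more. The difference was 3.47 ± 0.68 (SE) with all 12 pairs, adjusted p = 0.0198, and 2.77 ± 0.34 without spinal pair 4, adjusted p = 0.00187 (limma). The call with all pairs was lost without oculomotor pair 2 or 6 (adjusted p from 0.0523 to 0.0526). *Ebf1*, a helix-loop-helix factor of differentiating neurons, had a difference of 4.24 (adjusted p = 0.00170) with all 12 pairs and 3.97 (adjusted p = 0.00219) without spinal pair 4, and *Onecut2*, a homeodomain factor of motor neurons, one of 2.81 (adjusted p = 0.0137) with all 12 pairs and 2.58 (adjusted p = 0.0216) without spinal pair 4 (limma). Among the 11 pairs without spinal pair 4, leaving out 1 ended the call for *Onecut2* in 3 cases (adjusted p up to 0.0562).

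Of the 12 cranial and oculomotor motor neuron factors, 7 had the higher oculomotor step with all pairs (0.852% of all genes), among them *Tbx20*, *Rgs4*, *Eya1*, *Eya2*, *Nkx6-1* and *Pou4f1*, and *Eya2* was not called without spinal pair 4, where 6 were (1.13%). None had a called higher spinal step. In the oculomotor culture 9 of the 12 rose (8.22% of all genes), and in the spinal culture none did with all pairs and 1 did without spinal pair 4. The median difference was 2.42 with all pairs and 2.47 without spinal pair 4. In fits without the term for pairs 4 and 5 of the 12 were called, respectively.

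*Tbx20*, a T-box factor of cranial motor neurons (chromosome 9, 24718138 to 24774303), was highest in the oculomotor GFP-positive samples. *Tbx20* was at 0.0346 to 0.803 RPKM (median 0.215) in oculomotor GFP-negative samples and at 6.39 to 14.0 RPKM (median 9.83) in oculomotor GFP-positive samples. For *Tbx20* in the 5 other spinal pairs, the values were 0 to 0.839 RPKM (median 0.294) in GFP-negative and 0.241 to 0.565 RPKM (median 0.323) in GFP-positive samples, and pair 4 held 0 and 0 RPKM. The difference was 3.09 ± 0.27 (SE) with all 12 pairs, adjusted p = 0.000226, and 3.08 ± 0.30 without spinal pair 4, adjusted p = 0.000614 (limma). It was 2.79 (adjusted p = 0.0268) within replicates 1 to 4 and 3.68 (adjusted p = 0.227) within replicates 5 and 6. *Phox2a*, whose RPKM do not separate the transgene from the endogenous gene, had a difference that did not pass the test, 1.66 (adjusted p = 0.177) with all 12 pairs and 1.48 (adjusted p = 0.263) without spinal pair 4 (limma). *Phox2a* was at 3.09 to 6.43 RPKM (median 3.91) in oculomotor GFP-negative samples and at 5.83 to 53.4 RPKM (median 27.9) in oculomotor GFP-positive samples. For *Phox2a* in the 5 other spinal pairs, the values were 0 to 2.42 RPKM (median 0.208) in GFP-negative and 0 to 8.59 RPKM (median 0.423) in GFP-positive samples, and pair 4 held 0.694 and 0.126 RPKM. *Nkx6-1*, a homeodomain factor of ventral progenitors and of some motor neurons, differed by 3.07 (adjusted p = 0.00309) with all 12 pairs and 3.07 (adjusted p = 0.00501) without spinal pair 4 (limma).

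The 12 spinal motor neuron factors contained the genes with the higher spinal step among the motor neuron genes. *Lhx1* and *Lhx3* were called with all pairs (1.19% of all genes had a higher spinal step), and *Mnx1* in addition without spinal pair 4, while *Nkx6-1*, which is also on this list, had the higher oculomotor step. The median difference was -0.72 with all pairs and -0.92 without spinal pair 4. *Mnx1* gave the reporter of the spinal sort, so its spinal step describes that sort. *Mnx1* was at 0 to 0.988 RPKM (median 0.227) in oculomotor GFP-negative samples and at 0.0696 to 6.91 RPKM (median 2.23) in oculomotor GFP-positive samples. For *Mnx1* in the 5 other spinal pairs, the values were 0.189 to 4.72 RPKM (median 3.65) in GFP-negative and 55.8 to 149 RPKM (median 107) in GFP-positive samples, and pair 4 held 69.4 and 43.1 RPKM. The difference was -2.92 ± 1.00 (SE) with all 12 pairs, adjusted p = 0.166, and -3.86 ± 0.63 without spinal pair 4, adjusted p = 0.00813 (limma). *Lhx3*, the LIM homeodomain factor that acts with *Isl1* in spinal motor neurons, differed by -2.98 (adjusted p = 0.0455) with all 12 pairs and -3.67 (adjusted p = 0.000624) without spinal pair 4, and *Lhx1*, which marks limb-innervating motor neurons and interneurons, by -2.55 (adjusted p = 0.0317) with all 12 pairs and -3.01 (adjusted p = 0.00236) without spinal pair 4 (limma). *Lhx3* was at 0 to 0.243 RPKM (median 0.0265) in oculomotor GFP-negative samples and at 0 to 0.154 RPKM (median 0.0475) in oculomotor GFP-positive samples. For *Lhx3* in the 5 other spinal pairs, the values were 0 to 6.03 RPKM (median 2.62) in GFP-negative and 4.54 to 84.4 RPKM (median 60.1) in GFP-positive samples, and pair 4 held 6.26 and 4.12 RPKM. No oculomotor sample exceeded 0.243 RPKM. With all pairs, the call for *Lhx3* was lost in 11 of 12 cases of 1 pair left out (adjusted p from 0.0670 to 0.0926) and that for *Lhx1* in 9 (adjusted p from 0.0562 to 0.0733).

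Most calls among basement membrane and endoderm genes appeared only when spinal pair 4 was left out. Of 17 mesenchyme and matrix genes none was called with all pairs, whereas *Col4a1*, *Col4a2*, *Sparc*, *Lamb1* and *Lamc1* had the higher oculomotor step without spinal pair 4 (1.13% of all genes). Of 17 endoderm and epithelial genes, *Apoe* and *Spp1* had the higher spinal step with all pairs (1.19% of all genes), the call for *Apoe* being lost in 11 of 12 cases of 1 pair left out (adjusted p from 0.0546 to 0.0956), and *Sox17*, *Gata4* and *Gata6* had the higher oculomotor step beside *Spp1* in the other direction without spinal pair 4. For these 5 matrix and 3 endoderm genes both mean steps were negative, and the spinal one was the more negative. Without spinal pair 4, 12 of the 17 endoderm genes fell in the oculomotor and 11 in the spinal culture (8.44% and 2.62% of all genes). Leaving out 1 of the other 11 pairs ended the call for *Lamb1* in 8 cases (adjusted p up to 0.0748). Summed endoderm RPKM ran from 338 to 1269 in oculomotor GFP-negative, 14.4 to 93.8 in oculomotor GFP-positive, 262 to 2008 in spinal GFP-negative and 16.1 to 1869.5 in spinal GFP-positive samples. The highest of both spinal groups was pair 4, and the next highest sums were 564 and 574 RPKM. Median differences were 0.07 and 0.05 with all pairs and 0.21 and 0.35 without spinal pair 4 for the matrix and the endoderm list. Dropping the term for pairs as well left 2 matrix genes and 4 endoderm genes called.

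*Col4a1* encodes a chain of the basement membrane collagen IV and lies head to head with *Col4a2*, the gene of its partner chain, on chromosome 8. *Col4a1* was at 9.56 to 78.0 RPKM (median 25.5) in oculomotor GFP-negative samples and at 0.566 to 9.64 RPKM (median 3.83) in oculomotor GFP-positive samples. For *Col4a1* in the 5 other spinal pairs, the values were 155 to 463 RPKM (median 358) in GFP-negative and 0.723 to 6.98 RPKM (median 2.17) in GFP-positive samples, and pair 4 held 3.03 and 3.53 RPKM. The mean step was -2.62 in the oculomotor and -6.39 in the spinal culture without pair 4. The difference was 2.67 ± 1.01 (SE) with all 12 pairs, adjusted p = 0.213, and 3.77 ± 0.38 without spinal pair 4, adjusted p = 0.000614 (limma). For *Col4a2* it was 3.16 (adjusted p = 0.0899) with all 12 pairs and 4.10 (adjusted p = 0.000614) without spinal pair 4. *Gata6*, a zinc-finger factor of endoderm, differed by 2.43 (adjusted p = 0.0660) with all 12 pairs and 3.02 (adjusted p = 0.00249) without spinal pair 4, and *Gata4* by 2.13 (adjusted p = 0.0825) with all 12 pairs and 2.68 (adjusted p = 0.00219) without spinal pair 4 (limma). *Gata6* was at 0.130 to 4.42 RPKM (median 1.23) in oculomotor GFP-negative samples and at 0 to 0.540 RPKM (median 0) in oculomotor GFP-positive samples. For *Gata6* in the 5 other spinal pairs, the values were 12.6 to 25.0 RPKM (median 23.0) in GFP-negative and 0 to 0.447 RPKM (median 0.0816) in GFP-positive samples, and pair 4 held 2.65 and 1.28 RPKM. The other genes named by the rule as called only without spinal pair 4 with the higher oculomotor step were *Tspan8* (4.01), *Srgn* (3.87), *Hs3st1* (3.84) and *Spink4* (3.58), each value being the difference without spinal pair 4.

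With the higher spinal step and called only without spinal pair 4 were, after *Mnx1*, *Zscan4b* (-3.52), *Rbfox1*, a neuronal splicing factor (-2.95), *Srrm4os* (-2.27), *Zfp981* (-2.08) and *Pdzd4* (-2.07), in differences of log2(RPKM + 1) without spinal pair 4. *Zscan4b* belongs to a cluster of near-identical genes and *Srrm4os* is an antisense gene counted without strand, so that both values are uncertain. Leaving out 1 of the other 11 pairs ended the call for *Zscan4b* in 8 cases (adjusted p up to 0.0721), *Rbfox1* in 8 cases (adjusted p up to 0.0790), *Srrm4os* in 9 cases (adjusted p up to 0.0899), *Zfp981* in 9 cases (adjusted p up to 0.0944) and *Pdzd4* in 8 cases (adjusted p up to 0.0904). *Rbfox1* was at 0 to 0.116 RPKM (median 0) in oculomotor GFP-negative samples and at 0 to 1.66 RPKM (median 0.501) in oculomotor GFP-positive samples. For *Rbfox1* in the 5 other spinal pairs, the values were 0 to 1.14 RPKM (median 0.373) in GFP-negative and 3.73 to 39.9 RPKM (median 13.6) in GFP-positive samples, and pair 4 held 0.0567 and 0.247 RPKM.

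Without spinal pair 4, 6 genes rose in the oculomotor and fell in the spinal culture, with both steps and the difference called, and 9 did the opposite. Among the 6, *Tspan2*, a tetraspanin, rose by 2.01 in the oculomotor and fell by 1.14 in the spinal culture on the log2 scale. *Tspan2* was at 1.40 to 3.73 RPKM (median 1.94) in oculomotor GFP-negative samples and at 8.07 to 14.9 RPKM (median 12.3) in oculomotor GFP-positive samples. For *Tspan2* in the 5 other spinal pairs, the values were 2.61 to 10.3 RPKM (median 4.32) in GFP-negative and 0.452 to 2.30 RPKM (median 1.83) in GFP-positive samples, and pair 4 held 2.52 and 2.21 RPKM. The difference was 2.98 (adjusted p = 0.000875) with all 12 pairs and 3.15 (adjusted p = 0.000614) without spinal pair 4 (limma). *Glrx*, a glutaredoxin (3.22), *S100a13*, a calcium-binding protein (3.37), *Tax1bp3* (3.32) and *Cited2*, a transcriptional co-regulator (2.38), were also among the 6. Among the 9 were *Nanog*, *Gtsf1l*, *Klf2*, a Krüppel-like factor of naive pluripotency (-4.64), and *Bmp7*, a bone morphogenetic protein (-2.13), each bracketed value being the difference without spinal pair 4. With 1 of the 12 pairs left out, the call with all pairs was lost for *Bmp7* in 9 cases (adjusted p from 0.0517 to 0.0764) and for *Cited2* in 1 case (adjusted p = 0.0563) (limma). *Bmp7* was at 5.06 to 11.8 RPKM (median 7.70) in oculomotor GFP-negative samples and at 2.63 to 5.94 RPKM (median 3.80) in oculomotor GFP-positive samples. For *Bmp7* in the 5 other spinal pairs, the values were 1.09 to 4.90 RPKM (median 1.65) in GFP-negative and 4.17 to 8.63 RPKM (median 7.28) in GFP-positive samples, and pair 4 held 7.08 and 5.99 RPKM.

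**Figure D4:**
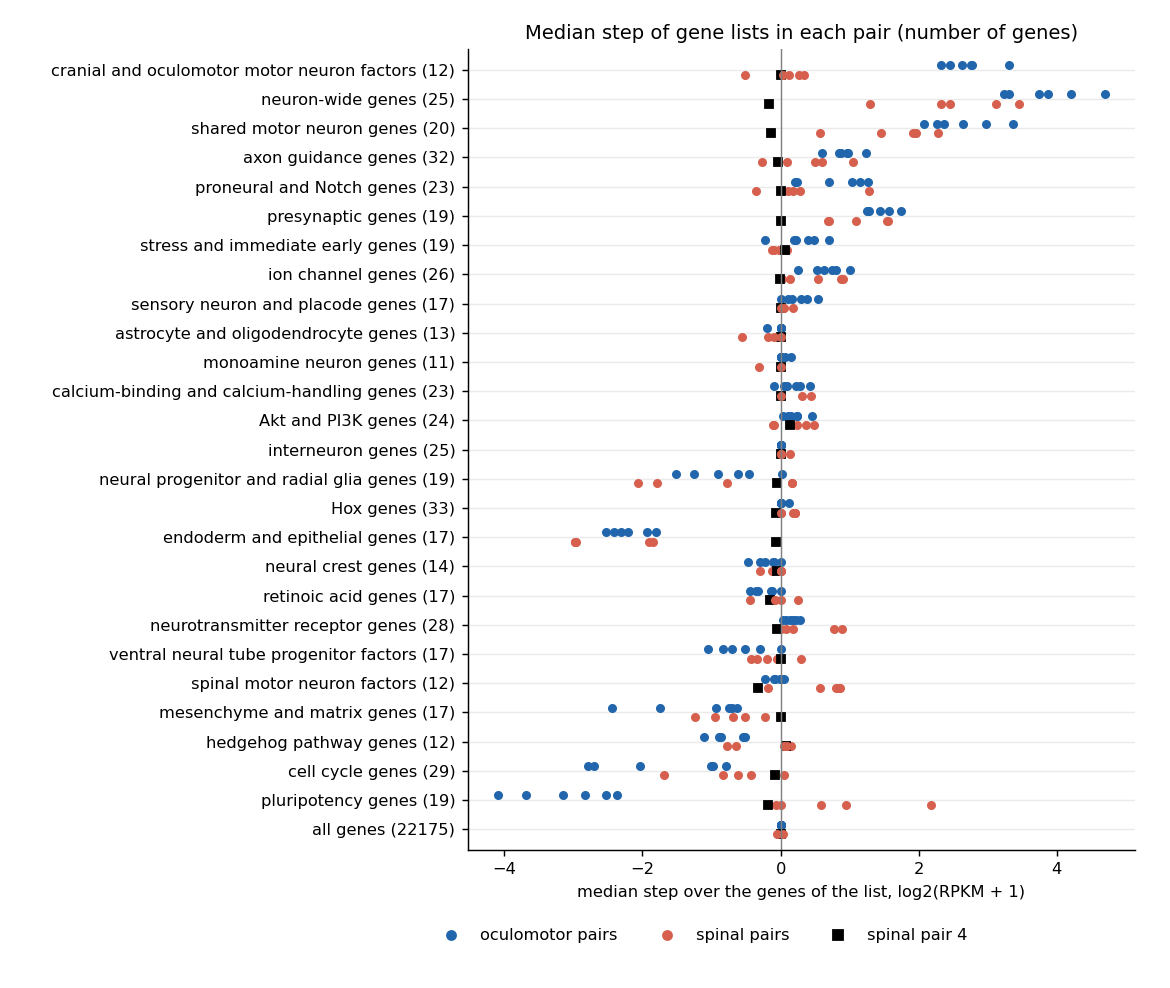
Median step in log2(RPKM + 1) of each of 26 gene lists and of all genes in every oculomotor and spinal pair, with spinal pair 4 marked. The pluripotency list is negative in all 6 oculomotor pairs (-4.09 to -2.37) and lies between -0.18 and 2.18 in the spinal pairs. The neuron-wide list is on the positive side in every pair except spinal pair 4 (-0.17).

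Of 32 axon guidance genes, *Robo2*, *Unc5c*, *Plxna2*, *Plxna4* and *Sema6d* had the higher oculomotor step (0.852% of all genes, here and for the lists that follow), all but *Unc5c* also without spinal pair 4 (1.13%), and none the higher spinal step. The list's median difference was 0.45 and 0.49, and 2 to 6 genes were called with any 1 of the 12 pairs left out. That ended the call for *Robo2* in 5 cases (adjusted p up to 0.0656) and *Plxna2* in 5 cases (adjusted p up to 0.0604), and without spinal pair 4 for *Robo2* in 9 cases (adjusted p up to 0.104), *Plxna2* in 8 cases (adjusted p up to 0.0828) and *Plxna4* in 3 cases (adjusted p up to 0.0577). Of 28 neurotransmitter receptor genes, *Chrna3* and *Chrnb4*, neighboring genes of nicotinic acetylcholine receptor subunits, had the higher oculomotor step in both fits, with a list median of -0.01 and -0.02 and differences of 3.56 (adjusted p = 0.00541) with all 12 pairs and 3.27 (adjusted p = 0.00663) without spinal pair 4, and of 3.00 (adjusted p = 0.00843) with all 12 pairs and 2.69 (adjusted p = 0.00831) without spinal pair 4 (limma). Of 26 ion channel genes only *Cacna1e*, a calcium channel subunit, was called, at 1.70 and 1.64, and the median difference of that list was 0.15 and 0.14. Of 23 calcium-binding and calcium-handling genes, *Hpca* was called with all pairs (2.64) and none without spinal pair 4 (list median 0.13 and 0.13). Of 19 presynaptic genes, *Syp* had the higher oculomotor step with all pairs (2.15) and *Rims1* the higher spinal step without spinal pair 4 (-1.05), beside a list median of 0.53 and 0.29. *Rims1* did not exceed 1.89 RPKM in any sample. With 1 of the 12 pairs left out, the call was lost for *Cacna1e* in 6 cases (adjusted p up to 0.0683), *Hpca* in 8 cases (adjusted p up to 0.0966) and *Syp* in 8 cases (adjusted p up to 0.0926).

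Of 23 proneural and Notch genes, *Neurod4* (3.13 and 2.80) and *Insm1* (2.94 and 2.92), which act in newly born neurons, had the higher oculomotor step in both fits (0.852% and 1.13% of all genes; list median 0.87 and 0.84). Of 29 cell cycle genes 26 fell in the oculomotor culture with a median step of -1.66, where 8.21% of all genes fell, none was called in the spinal culture, where the median step was -0.64, and none passed the test of the difference in either fit. The member of smallest p, *Mcm7*, a replicative helicase subunit, had a difference of -1.21 (adjusted p = 0.0617) with all 12 pairs and -1.16 (adjusted p = 0.0958) without spinal pair 4 (limma). Of 19 neural progenitor and radial glia genes, *Pou3f2* had the higher oculomotor step in both fits (2.35 and 2.44) and *Sox2* the higher spinal step with all pairs only (-1.98 and -1.79). With 1 of the 12 pairs left out the call was lost for *Sox2* in 10 cases (adjusted p up to 0.103) and *Insm1* in 1 case (adjusted p up to 0.0519), and without spinal pair 4, with 1 of the other 11 left out, for *Insm1* in 7 cases (adjusted p up to 0.0737) and *Pou3f2* in 3 cases (adjusted p up to 0.0584). *Sox2* is also active in pluripotent cells. Of 17 ventral progenitor factors, *Nkx6-1* alone was called. The list medians of the difference were 0.02 and 0.14 for progenitor and radial glia genes and -0.36 and -0.33 for ventral progenitor factors.

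Among 17 sensory neuron and placode genes, 3 had the higher oculomotor step with all pairs, *Pou4f1* and *P2rx3* among them, and these 2 did without spinal pair 4. Among 11 monoamine neuron genes *Dbh*, the noradrenaline-synthesizing enzyme, had the higher oculomotor step (1.45 and 1.48). *Foxd3*, on the interneuron (25 tested) and neural crest (14) lists and also active in stem cells, had the higher spinal step with all pairs only (-1.38 and -1.28), and *Pdgfra* of the 13 astrocyte and oligodendrocyte genes had the higher oculomotor step without spinal pair 4 (2.22). No sample exceeded 2.90 RPKM for *Dbh* or 4.54 RPKM for *Foxd3*. Leaving out 1 of the 12 pairs ended the call for *Dbh* in 8 cases (adjusted p up to 0.0763) and *Foxd3* in 8 cases (adjusted p up to 0.0783), and without spinal pair 4 leaving out 1 of the other 11 ended it for *Dbh* in 9 cases (adjusted p up to 0.111), *P2rx3* in 3 cases (adjusted p up to 0.0647) and *Pou4f1* in 1 case (adjusted p up to 0.0501). The medians of these 5 lists lay between -0.04 and 0.41 with all pairs and between -0.12 and 0.49 without spinal pair 4.

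None of 12 hedgehog pathway genes and none of 24 Akt and PI3K genes was called in either fit, with *Gsk3b* the Akt and PI3K member of smallest p, 0.67 (adjusted p = 0.259) with all 12 pairs and 0.54 (adjusted p = 0.381) without spinal pair 4 (limma). Of 17 retinoic acid genes *Cyp26a1*, which degrades retinoic acid, had the higher oculomotor step without spinal pair 4, the difference being 2.19 (adjusted p = 0.213) with all 12 pairs and 2.99 (adjusted p = 0.00726) without spinal pair 4. Of 33 *Hox* genes tested with all pairs none was called, and *Hoxb5* alone had the higher spinal step without spinal pair 4, with -1.08 (adjusted p = 0.216) with all 12 pairs and -1.43 (adjusted p = 0.0310) without spinal pair 4. Of 19 stress and immediate early genes only *Fos* was called, with 1.17 (adjusted p = 0.147) with all 12 pairs and 1.44 (adjusted p = 0.0428) without spinal pair 4. Leaving out 1 of the other 11 pairs as well ended the call for *Hoxb5* in 8 cases (adjusted p up to 0.0739) and *Fos* in 8 cases (adjusted p up to 0.0934). The list medians were -0.75 and -0.56 for hedgehog, 0.05 and 0.07 for Akt and PI3K, -0.00429 and 0.09 for retinoic acid, 0.02 and -0.06 for *Hox* and 0.34 and 0.52 for stress genes.

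**Figure D5:**
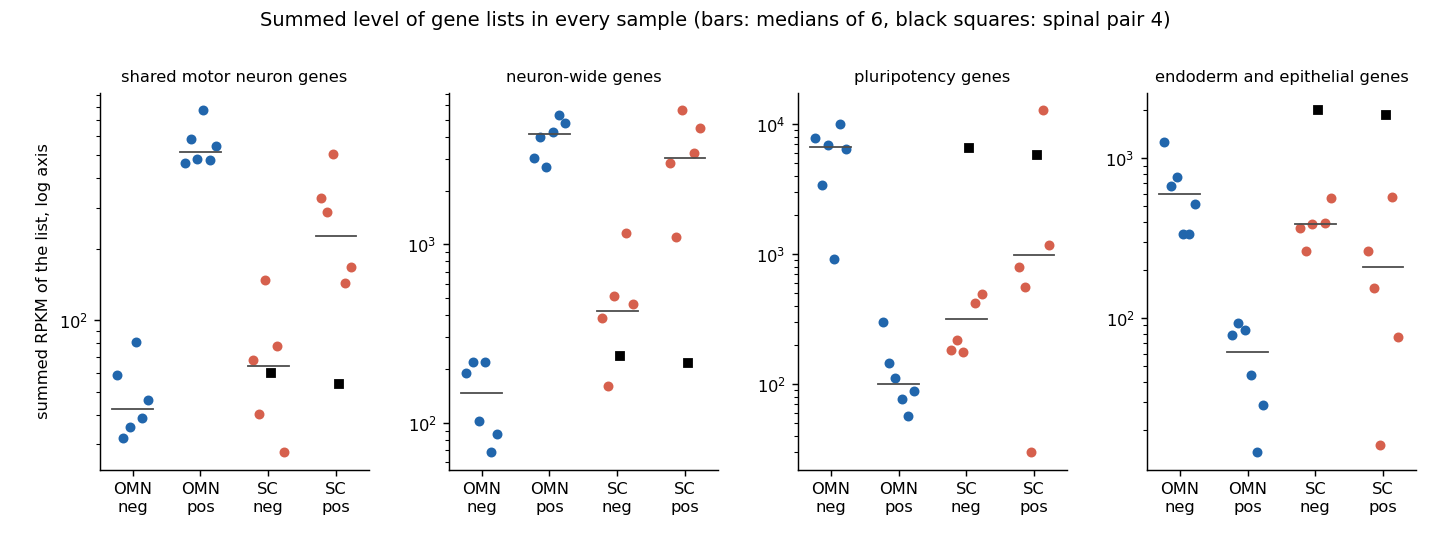
Summed RPKM of the shared motor neuron, neuron-wide, pluripotency, and endoderm and epithelial lists in each sample, by culture (OMN, oculomotor; SC, spinal) and fraction, on a log axis with bars at the medians and spinal pair 4 marked. Pluripotency sums are 56.9 to 303 in the oculomotor GFP-positive samples and 29.8 to 12899 in the spinal GFP-positive samples. *Dppa5a* alone held 12328 of the 12899 RPKM.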

How the data were processed

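Poly(A) RNA of all 24 sorted mESC-derived samples was sequenced from SMART-seq2 libraries, which carry no molecular identifiers and do not keep strand. The authors mapped reads to mm10 (GRCm38) with HISAT2 2.0.3 and deposited RPKM values computed with rpkmforgenes, without read counts; DESeq2 1.12.4 is named in the submitters' notes for their own comparisons. The gene annotation was not given in the sources used here.

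Each sample was paired with the other fraction of the same culture and number, as the labels give them. Deviations from the group means correlated between the fractions of every pair, at 0.423 to 0.770 for oculomotor and 0.481 to 0.665 for spinal pairs. Fractions of unlike number were not compared, so these values do not establish the pairing. The log2(RPKM + 1) values were fitted with limma 3.58.1 (R 4.3.3), using 1 term per pair, a variance trend and Benjamini-Hochberg adjustment at 0.05, for genes above 0 RPKM in at least 2 samples. The fit was repeated without spinal pair 4. An offset of 1 RPKM understates changes of low genes. Tables and figures were made in Python 3.11.15 (pandas 2.3.3, matplotlib 3.10.9).

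Gene names shared by 4 entries were not used, and GENCODE M21 gave 22144 genes 1 position. Depth was estimated from the size of 1 read in 5907 single-transcript genes, where 96.0% to 98.0% of values under 10 reads were whole within 2%. Named genes were the 12 of largest difference per direction called in both fits, up to 6 per direction called only without spinal pair 4 and up to 5 per direction with opposite called steps, each with a mean of at least 5 RPKM in a group. *Isl1*, *Mnx1* and *Phox2a* were added, and up to 4 called members per list or else the member of smallest p. Members of lists were named at lower levels as well. *Klf4* and other list members are named where counts of 5 or fewer are given. The members, lists and tests were chosen with earlier results of these data known. The 26 lists came from general knowledge and the study's marker genes, some chosen by the study on these samples, and 8 members were absent from the table. Some genes that met these rules are not reported here. Alternatives were other offsets, filters, scaling, variance models and pair terms, replicates 1 to 4 or replicates 5 and 6 alone, and leaving out each pair.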

Additional observations from a re-analysis of the deposited data

Results flagged for a closer look

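The steps from GFP-negative to GFP-positive differed between the cultures, by the test of the difference itself, for 453 genes with all 12 pairs and for 499 without spinal pair 4. Across the named genes, 164 sets of 6 steps were examined for a single pair far from the other 5 (Dixon's criterion, which chance meets in about 1 of 20 sets). It was met in 18 sets, and 9 of these were spinal pair 4. Some of the genes were named because they were called only without spinal pair 4. The chance rate therefore does not apply to the count for spinal pair 4. In that pair the step was -0.12 for *Col4a2*, 0.17 for *Col4a1*, 0.0060 for *Lamc1*, -0.68 for *Gata6*, -0.34 for *Gata4*, -0.36 for *Srgn*, -0.14 for *Hs3st1* and -0.36 for *Cyp26a1*, each the highest of the 6. For *Isl1* it was -0.15, the lowest of the 6.

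In the other spinal pairs, *Upp1* in pair 1 (2.41) and *Pou4f1* in pair 2 (1.84) were highest and *Tbx20* in pair 5 (-0.55) was lowest. Among the oculomotor pairs, *Nefm* in pair 1 (5.50) was lowest, and *Phlda2* in pair 4 (-0.25), *Nkx6-1* in pair 2 (4.37), *Pou3f2* in pair 2 (3.32), *Lhx1* in pair 1 (0.28) and *Hoxb5* in pair 3 (1.18) were highest. Each value is a step in log2(RPKM + 1).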

How the results depend on the processing

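With all 12 pairs, the count of 453 genes became 71 with no replicate block (no term for pairs, 58 with the higher oculomotor step), 171 with a block shared by the cultures, 841 for genes above 1 RPKM in at least 6 samples, 698 with sample weights, 52 within replicates 1 to 4 and 0 within replicates 5 and 6 (limma; 2163 genes at an unadjusted p under 0.05), and 220 to 590 on leaving out a pair. Without spinal pair 4, the count of 499 became 228 with no replicate block (132 with the higher oculomotor step), 157 with a shared block, 761 under the stricter filter and 56 within replicates 1 to 4, and 299 to 615 on leaving out a further pair. Replicates 5 and 6 do not include spinal pair 4, so that fit is the same with and without it. The oculomotor count of 3644 became 1364 with no replicate block, 6374 with sample weights, 1699 within replicates 1 to 4 and 10 within replicates 5 and 6, and 2688 to 4197 on leaving out a pair. The spinal count of 649 became 272 with no replicate block, 288 with a shared block and 286 with sample weights, and 0 within replicates 1 to 4 and within replicates 5 and 6 (2711 and 2356 genes at an unadjusted p under 0.05), and 166 to 1238 on leaving out a pair, the highest without spinal pair 4. Pairs whose omission moved the spinal count by over 1.5 times were spinal pairs 1, 2, 3 and 6 (166, 418, 174 and 169) and oculomotor pair 2 (432). An offset of 0.1 RPKM, no filter, median-of-ratios scaling, and no or a robust variance trend kept the counts within 1.5 times. Under median-of-ratios scaling 419 of the 453 genes were still called, and leaving out spinal pair 2 gave 442 genes. The cause of each change was not tested.

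Over the 82 genes named, no difference changed direction under any alternative. A call was lost in 566 cases, over 57 genes, and gained in 369, over 23 genes, against 2664 that kept their side of the threshold. Replicates 5 and 6 leave 2 pairs per culture, and an estimated 752529 to 7675428 reads limit what can be seen of genes near 1 RPKM.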
